A study of Mus musculus and Homo sapiens with 34 samples.

Results

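The 45 genes described here encode the constitutive subunits of the proteasome, its regulators and its dedicated assembly factors. They were taken by symbol from the mouse and human count tables, as every gene named PSMA, PSMB, PSMC, PSMD, PSME, PSMF or PSMG with a number, leaving out PSMB8, PSMB9 and PSMB10, the interferon-inducible catalytic subunits. The rule found 45 of 55450 mouse genes and 45 of 58870 human genes, with the same symbols in both species when case is ignored. By role they are 16 genes of the core (8 alpha and 8 beta), 17 of the cap (9 of the base and 8 of the lid), 3 cap assembly chaperones, 3 PA28 genes (PSME1, PSME2 and PSME3), PSME4 for the activator PA200, PSMF1 for the inhibitor PI31, and 4 core assembly chaperones. No measured value entered the rule.

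PolyA RNA was sequenced from spheroids of 3 established colorectal carcinoma lines, with 6 CT26 SIS ECM libraries and 6 CT26 cells-alone libraries (mouse), 5 MC38 SIS ECM and 5 MC38 cells-alone libraries (mouse), and 6 HT29 SIS ECM and 6 HT29 cells-alone libraries (human). Spheroids formed in low-attachment round-bottom wells, either with the matrix preparation SIS ECM or from cells alone, and were collected on day 7, with 10 spheroids pooled in each tube. The labels name no drug, allele or transgene in any group. They do not say whether libraries of a group came from separate cultures, so every p-value here measures the spread between libraries, which may be technical.

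The proteasome degrades proteins tagged with ubiquitin. In its barrel-shaped core, alpha subunits form the outer, gated rings and beta subunits the inner rings, where PSMB5, PSMB6 and PSMB7 carry the active sites. Under interferon gamma, PSMB8 is built in for PSMB5, PSMB9 for PSMB6 and PSMB10 for PSMB7, which gives the immunoproteasome. The cap binds, unfolds and feeds in the substrate: PSMC1 to PSMC6 are its ATPases, and PSMD14 removes ubiquitin. PA28 made of PSME1 and PSME2 opens the core without ubiquitin and is also interferon-inducible, whereas PSME3 forms a nuclear PA28 ring. The transcription factor NFE2L1 raises constitutive subunits together through antioxidant response elements when proteasome activity falls short.

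Upstream sequence is shown for Psmb5 and Psmb6, the active-site genes matched in the sequence table, and for Psme3, the constitutive gene nearest to the threshold in CT26. The sequences are those of RefSeq (build GRCm38.p6), 5′ to 3′ on the gene's strand and ending just before the RefSeq transcription start. For Psmb5 the last 27 bases were left out because the GENCODE annotation places them inside an exon. Capitals mark an antioxidant response element in Psmb5 and Psmb6, and an ETS element followed by a CCAAT box (read on the other strand) in Psme3.
Psmb5, chr14:54618023-54618245, minus strand: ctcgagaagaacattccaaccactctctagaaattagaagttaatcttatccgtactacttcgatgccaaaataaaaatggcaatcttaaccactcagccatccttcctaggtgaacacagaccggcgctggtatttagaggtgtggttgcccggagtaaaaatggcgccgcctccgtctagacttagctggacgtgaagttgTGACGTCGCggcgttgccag
Psmb6, chr11:70525107-70525356, plus strand: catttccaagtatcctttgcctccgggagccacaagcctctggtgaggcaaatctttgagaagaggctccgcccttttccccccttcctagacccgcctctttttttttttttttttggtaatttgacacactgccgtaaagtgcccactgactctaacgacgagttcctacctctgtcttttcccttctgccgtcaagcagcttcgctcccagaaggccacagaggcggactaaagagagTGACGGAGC
Psme3, chr11:101315963-101316212, plus strand: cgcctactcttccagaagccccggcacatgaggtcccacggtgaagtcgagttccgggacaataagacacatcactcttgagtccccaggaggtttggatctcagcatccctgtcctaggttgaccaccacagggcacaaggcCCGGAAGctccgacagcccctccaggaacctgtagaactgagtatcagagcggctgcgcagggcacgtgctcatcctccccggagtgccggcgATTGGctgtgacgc

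Over all 32851 windows of 250 bases before mouse transcription starts, searched on both strands, TGANNNNGC (the antioxidant response element) occurred in 35.2%, CCGGAAG (ETS) in 6.91%, CCAAT in 33.8%, TTCNNNGAA (the STAT element) in 7.02% and the interferon response element (GAAA, any 2 bases, GAAA) in 2.98%. Of the constitutive genes, 37 had an entry, with 40 windows. Among these, 16 windows held TGANNNNGC, 13 held CCGGAAG, 13 held CCAAT, 1 held TTCNNNGAA (Psmg1) and 3 held the interferon response element (Psmb3, Psmd4 and Psmd9). The motifs marked above do not overlap each other. These are letter matches within the window, and no binding was measured.

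Library totals were 15826162 to 21053754 counts in CT26, 18877070 to 24196095 in MC38 and 25515238 to 37001503 in HT29. The label of colorectal carcinoma was set against epithelial markers: their summed level was 8134 to 9906 CPM (counts scaled to library size with TMM factors) in HT29 SIS ECM libraries and 8780 to 10072 in HT29 cells-alone libraries. It was 11.3 to 22.2 in CT26 SIS ECM and 6.21 to 10.2 in CT26 cells-alone libraries, with Epcam and Cdh1 at 0 in all of them, and at most 1.33 in MC38, where Epcam, Cdx2 and Krt19 were at 0. The mouse lines thus lacked defining epithelial markers at this depth. Fibroblast markers summed to 2579 to 4106 CPM in MC38 SIS ECM and 3516 to 4415 in MC38 cells-alone libraries. In both mouse lines, libraries numbered 4 to 6 stood apart from libraries 1 to 3, with mitochondrially encoded genes at 8.07% ± 0.36 of counts against 4.41% ± 0.60 in CT26 (SD, n = 6 each) and at 6.28% ± 0.60 against 4.15% ± 0.72 in MC38 (SD, n = 5 each). The labels do not say what the numbers stand for.

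Of the 45 genes, 43 passed the filter on low counts in each line. The exceptions were Psma8 and Psmb11, the alpha and beta subunits of the testis and thymus proteasomes, with at most 1 count in any library of the 3 lines. Per kilobase of exon in mouse, the most abundant constitutive transcript in MC38 was Psmb7, at 225 ± 13 CPM per kb in SIS ECM and 199.96 ± 28 in cells-alone spheroids (SD, n = 5 each). In CT26, the alpha subunit gene Psma5 had 154 ± 42 in SIS ECM and 182 ± 32 in cells-alone spheroids (SD, n = 6 each), and its spread overlapped that of Psmd14 at 157 ± 31 and 178 ± 17. The 4 tested constitutive genes with the lowest group means in both mouse lines were the chaperone genes Psmg3, Psmg4 and Psmd9 and the inhibitor gene Psmf1, from 4.69 CPM per kb (Psmg4 in MC38 SIS ECM) to 15.9 CPM per kb (Psmg3 in MC38 cells alone). Core and cap genes were summed for each library to show their spread. In CT26 the core sum ran from 1532 to 2391 CPM (median 1909) with SIS ECM and from 1659 to 2301 CPM (median 1976) in cells alone. In MC38 the core sum was 2236, 2392, 2553, 2358 and 2427 CPM with SIS ECM and 1978, 1999, 2054, 2651 and 2642 CPM in cells alone. In HT29 it ran from 1946 to 2470 CPM (median 2088) with SIS ECM and from 2069 to 2379 CPM (median 2206) in cells alone. The groups overlapped in every line. In CT26 and in MC38 cells alone, libraries 4 to 6 lay above libraries 1 to 3 without overlap.

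**Figure D1:**
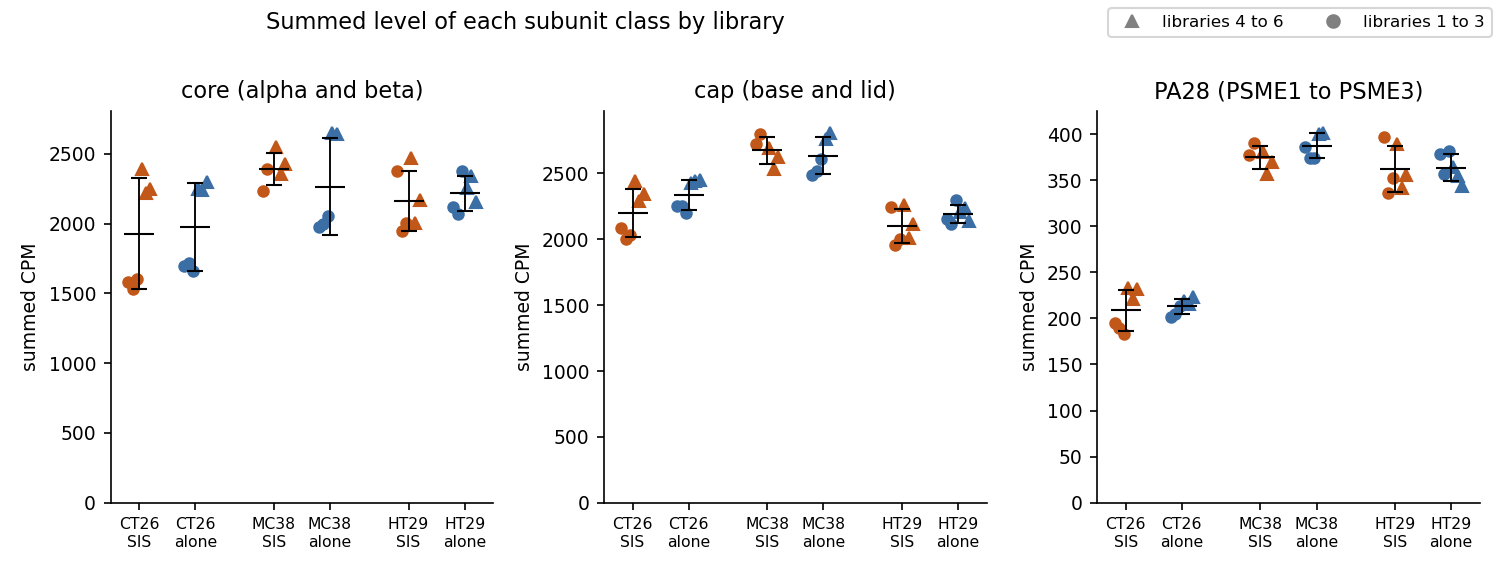
Summed CPM (y axis) of core, cap and PA28 genes in each library, for SIS ECM (orange) and cells-alone (blue) groups of each line; triangles are libraries 4 to 6, circles libraries 1 to 3, and bars the mean and SD. The 6 CT26 cells-alone libraries split into core sums of 1659 to 1715 and 2238 to 2301 by number range, while HT29 shows no such split.

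With libraries of both number ranges fitted together and no term for the range, SIS ECM changed few constitutive subunits, and the calls in the mouse lines depended on that choice. In CT26, 0 of the 43 tested genes passed an adjusted p of 0.05 (edgeR, quasi-likelihood test, Benjamini-Hochberg method across all genes), where 9.25% of all genes did. Of the 43, 3 had an unadjusted p under 0.05, where 2983 of all 12269 genes tested did. DESeq2 called 1 (Psme3), against 7.16% of all genes. In MC38, 0 of 43 passed in edgeR, against 9.17% of all genes. Of the 43, 4 had an unadjusted p under 0.05, where 3364 of all 13146 genes tested did. DESeq2 called 0, against 7.02% of all genes. In HT29, 0 rose and 3 fell (PSMC4, PSMC5 and PSMD9), against 13.5% of all genes called in either direction and 5.79% lower. DESeq2 called the same 3, against 8.61% of all genes. The same edgeR test within number ranges or with a range term, given further on, called more, among these genes and among all genes. In CT26 with the range term 2 were higher and 7 lower, against 28.9% of all genes called. In MC38 libraries 1 to 3, 21 were higher and 1 lower, against 39.7% of all genes called. In bulk RNA, fewer cells and less RNA per cell cannot be told apart.

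The intervals show how large a change that fit leaves room for. In CT26, the 95% intervals of the log2 fold change (SIS ECM over cells alone) of all 43 genes lay between -0.61 (Psma5) and 0.60 (Psmg4), and 39 stayed within 0.5 either way. In MC38 they lay between -0.63 (Psmg4) and 0.49 (Psma7), with 42 within 0.5. In HT29 they lay between -0.34 (PSMD9) and 0.21 (PSMG3), with all 43 within 0.5. The largest fitted change of either sign was 0.28 in CT26, 0.32 in MC38 and 0.23 in HT29. Over all 43 genes the median log2 fold change was -0.03 in CT26, 0.03 in MC38 and -0.05 in HT29, beside 0.01, 0.01 and -0.01 over all genes tested.

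**Figure D2:**
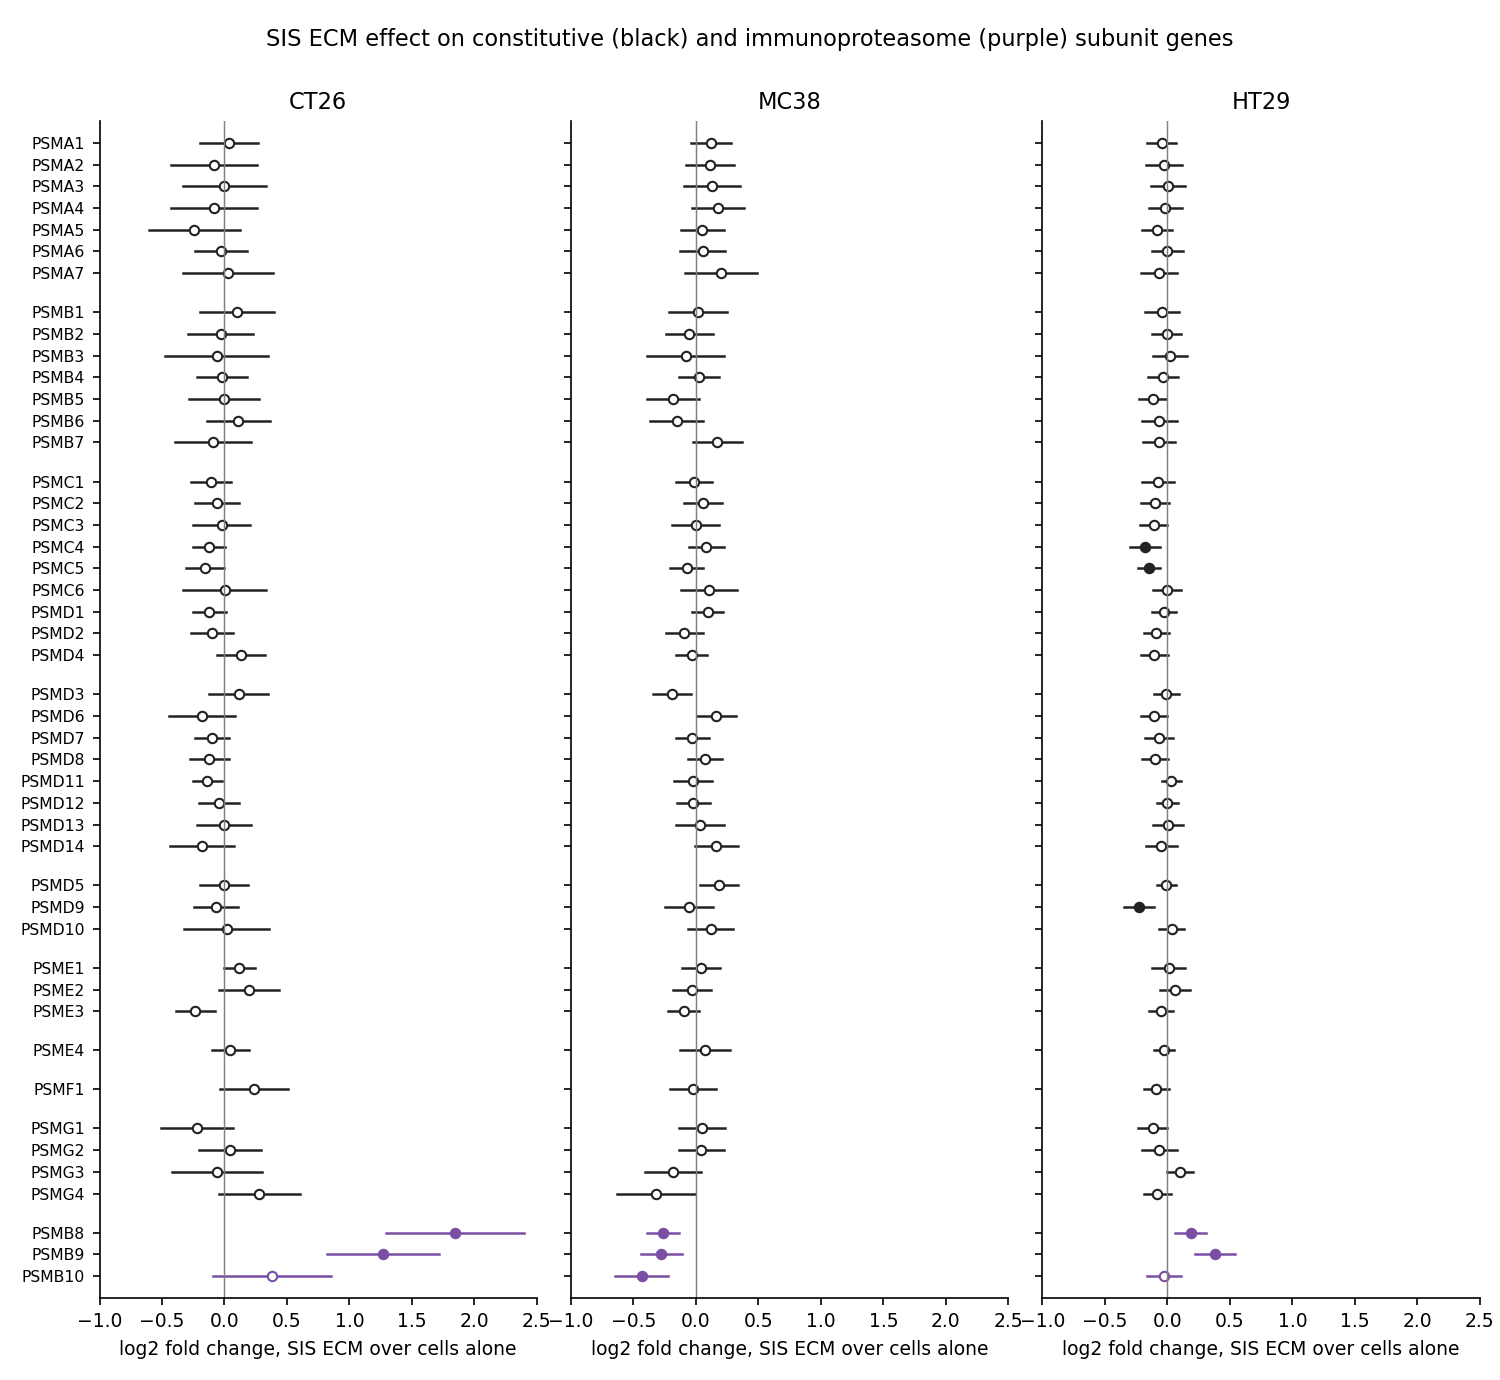
Log2 fold change of SIS ECM over cells alone (x axis) with its 95% interval for each tested constitutive gene (black) and the inducible subunits (purple) in CT26, MC38 and HT29, grouped by role from top to bottom; filled points have an adjusted p under 0.05. Black intervals cluster around 0, with PSMC4, PSMC5 and PSMD9 filled in HT29, whereas Psmb8 and Psmb9 lie at 1.85 and 1.27 in CT26.

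Core genes had no called member in any line. The 7 tested alpha genes had median log2 fold changes at -0.03 in CT26, 0.12 in MC38 and -0.03 in HT29, and the 7 tested beta genes at -0.02, -0.05 and -0.04. Psmb5, the chymotrypsin-like active site, had 17.7 to 31.7 CPM (median 27.0) in CT26 SIS ECM libraries and 21.5 to 30.7 CPM (median 26.8) in CT26 cells-alone libraries. The groups overlapped over most of their range, with a log2 fold change of -0.0041 ± 0.13 (SE). In MC38, Psmb5 had 42.3, 43.9, 48.8, 46.2 and 43.6 CPM with SIS ECM and 44.1, 45.7, 46.1, 55.6 and 63.5 CPM in cells alone. The 2 highest libraries were cells-alone libraries 4 and 5, the groups overlapped, and the log2 fold change was -0.18 ± 0.10. In HT29, PSMB5 had 65.4 to 78.5 CPM (median 68.8) with SIS ECM and 71.6 to 81.9 CPM (median 75.9) in cells alone, a log2 fold change of -0.12 ± 0.05 with an adjusted p of 0.14 in edgeR. Psmb6, the caspase-like active site, had a log2 fold change of 0.11 ± 0.12 in CT26, while it was -0.15 ± 0.10 in MC38 and -0.06 ± 0.07 in HT29. Psmb7, the trypsin-like active site, had -0.09 ± 0.14, 0.17 ± 0.09 and -0.07 ± 0.06, and neither Psmb6 nor Psmb7 had the same sign in all 3 lines.

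Cap genes held the only called core or cap genes, both of them ATPases of the base in HT29. PSMC5 had 97.9 to 112 CPM (median 102) in HT29 SIS ECM libraries and 112 to 121 CPM (median 114) in HT29 cells-alone libraries. Every SIS ECM library lay under every cells-alone library, and PSMC5 fell by 0.15 ± 0.04 on the log2 scale (adjusted p = 0.024 in edgeR). PSMC4 had 89.6 to 110 CPM (median 94.8) with SIS ECM and 107 to 119 CPM (median 110) in cells alone, with SIS ECM libraries 1 and 4 reaching into the cells-alone range, and fell by 0.18 ± 0.06 (adjusted p = 0.046 in edgeR). Both calls rested on single libraries: PSMC5 kept its call in 6 of 12 omissions of 1 library (adjusted p 0.011 to 0.068, lost without SIS ECM libraries 2, 3, 5 or 6 or cells-alone libraries 3 or 4), and PSMC4 in 2 of 12 (0.013 to 0.12, kept without SIS ECM libraries 1 or 4). All 9 base genes had a negative log2 fold change in HT29 (median -0.10), and 15 of the 17 cap genes did. In the mouse lines Psmc5 had -0.15 in CT26 and -0.07 in MC38, Psmc4 -0.12 and 0.08, and no cap gene passed. The lid medians were -0.11 in CT26, 0.01 in MC38 and -0.03 in HT29, with 0 called.

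Among the chaperones that help assemble cap and core, PSMD9, which holds base ATPases during assembly, fell in HT29. It had 26.7 to 31.6 CPM (median 27.3) with SIS ECM and 28.3 to 35.0 CPM (median 33.1) in cells alone. SIS ECM library 1 and cells-alone library 6 were where the groups overlapped, and the gene fell by 0.23 ± 0.06 (adjusted p = 0.012 in edgeR, 0.0027 to 0.036 over all 12 omissions of 1 library). Its expected counts were not whole in 11 of 12 libraries, as happens where reads are divided between features. In mouse, Psmd9 had log2 fold changes of -0.07 in CT26 and -0.05 in MC38. Psmd5, another base chaperone, had the smallest adjusted p of any constitutive gene in MC38, with 138 ± 3.6 CPM in SIS ECM and 122 ± 12 in cells-alone spheroids (SD, n = 5 each), a log2 fold change of 0.19 ± 0.07 and an adjusted p of 0.11 in edgeR. Of the core chaperones PSMG1 to PSMG4, 0 were called in any line.

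Of the PA28 genes, Psme3 came nearest to a call in the mouse lines. It had 82.1 to 106 CPM (median 95.1) in CT26 SIS ECM libraries and 109 to 114 CPM (median 110) in CT26 cells-alone libraries. Every SIS ECM library lay under every cells-alone library, and libraries 1 to 3 with SIS ECM were the lowest, at 82.1 to 87.4 CPM. The log2 fold change was -0.23 ± 0.07, with an adjusted p of 0.061 in edgeR and 0.017 in DESeq2. With library number as a block, which takes same-numbered libraries as pairs, the fold change was -0.24 with an adjusted p of 0.022 in edgeR. In that fit Psme3 and Psma5 (-0.27, adjusted p = 0.016) were the 2 genes that fell in CT26, against 18.6% of all genes called. Psme1 had 43.3 to 50.6 CPM (median 49.0) with SIS ECM and 42.5 to 46.3 CPM (median 44.1) in CT26 cells alone, and Psme2 52.5 to 79.5 CPM (median 66.0) with SIS ECM and 50.0 to 68.7 CPM (median 58.5) in CT26 cells alone. Their log2 fold changes were 0.12 ± 0.06 and 0.20 ± 0.11, and neither passed. In MC38 the changes were 0.04 ± 0.07 for Psme1, -0.03 ± 0.07 for Psme2 and -0.10 ± 0.06 for Psme3. In HT29 they were 0.01 ± 0.06 for PSME1, 0.06 ± 0.06 for PSME2 and -0.05 ± 0.04 for PSME3. PSME4 had 0.05 ± 0.07 in CT26, 0.07 ± 0.09 in MC38 and -0.03 ± 0.04 in HT29, and PSMF1 had 0.23 ± 0.13, -0.03 and -0.09, with 0 calls.

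The inducible subunits moved in the same libraries, and in different directions by line. In CT26, Psmb8 rose to 4.15 to 8.59 CPM (median 5.09) with SIS ECM, against 0.69 to 2.44 CPM (median 1.67) in cells alone, a log2 fold change of 1.85 ± 0.26 (adjusted p = 0.00038 in edgeR). Psmb9 rose to 2.53 to 4.71 CPM, against 0.91 to 1.94 CPM, by 1.27 ± 0.21 (adjusted p = 0.0014), and Psmb10 had 0.38 ± 0.22 (adjusted p = 0.31). In the same CT26 libraries leukocyte markers summed to 15.3 to 27.9 CPM with SIS ECM and 10.5 to 14.2 CPM in cells alone. Of these, Cd3e was at 0 in both and 1 of the 2 tested (7 listed) was higher. Epithelial markers, whose sums are given above, also had 1 of 2 tested (7 listed) higher. Of the fibroblast markers 1 of 5 tested (6 listed) was higher, against 9.25% of all genes called. An unadjusted p under 0.05 in edgeR was found for 2 leukocyte, 2 epithelial and 3 fibroblast markers, and for 2983 of all 12269 genes. The fibroblast sum was 424 to 646 CPM with SIS ECM and 488 to 739 CPM in cells alone. In MC38 all 3 fell: Psmb8 by 0.26 ± 0.06 (adjusted p = 0.016), Psmb9 by 0.28 ± 0.08 (adjusted p = 0.039) and Psmb10 by 0.43 ± 0.10 (adjusted p = 0.017). In the same MC38 libraries 1 of 4 tested fibroblast markers (6 listed, sums given above) was lower with SIS ECM, against 9.17% of all genes called. Of the endothelial markers 0 of 4 passed (1 tested, 1.84 to 4.02 CPM summed with SIS ECM, against 3.49 to 5.33 CPM in cells alone), and 0 of 7 leukocyte markers did (2 tested). An unadjusted p under 0.05 in edgeR was found for 2 fibroblast markers, 1 endothelial marker and 0 leukocyte markers. In HT29, PSMB9 rose by 0.38 ± 0.08 (adjusted p = 0.0024) and PSMB8 by 0.19 ± 0.06 (adjusted p = 0.046), while PSMB10 had -0.03 ± 0.06. In the same HT29 libraries 1 of 2 tested leukocyte markers (7 listed) was lower. Their sums were 24.4 to 28.7 CPM with SIS ECM and 27.2 to 31.0 CPM in cells alone. Of the epithelial markers 1 of 7 was lower (all 7 tested), against 13.5% of all genes called. The part of other cell types in these differences was not tested. The PSMB8 call in HT29 held in 3 of 12 omissions of 1 library (without SIS ECM library 2 or cells-alone libraries 2 or 3), and the Psmb9 call in MC38 in 3 of 10 (without SIS ECM library 3 or cells-alone libraries 2 or 4).

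Counts of each inducible subunit per 100 counts of its constitutive counterpart, with 0.5 added to both and no correction for length, put the pairs on one scale within a line. In CT26 there were 14.3 to 33.3 Psmb8 counts per 100 Psmb5 counts (median 21.4) with SIS ECM and 2.34 to 9.64 (median 6.54) in cells alone, with no overlap. In MC38 there were 225 to 268 (median 253) with SIS ECM and 231 to 291 (median 279.5) in cells alone, with overlap. In HT29 there were 38.7 to 44.2 (median 42.4) with SIS ECM and 29.1 to 39.1 (median 34.5) in cells alone, overlapping at 1 end. Psmb10 per 100 Psmb7 did not overlap between groups in MC38, at 13.2 to 15.1 (median 14.1) with SIS ECM and 19.1 to 23.8 (median 21.6) in cells alone. PSMB9 per 100 PSMB6 did not overlap in HT29 either, at 14.1 to 20.2 (median 16.5) with SIS ECM and 10.5 to 14.01 (median 11.9) in cells alone. These were the 3 of 9 pairs and lines without overlap. No share over other gene pairs is at hand, so this count cannot be read as unusual. The groups overlapped for PSMB10 per 100 PSMB7 in CT26 and HT29 and for PSMB9 per 100 PSMB6 in CT26 and MC38, the last at 31.2 to 41.5 (median 34.9) with SIS ECM and 34.0 to 41.7 (median 38.6) in cells alone. In the fit without a range term, none of the constitutive denominators was called. With that term Psmb5 and Psmb6 fell in MC38, and in CT26 libraries 1 to 3 alone Psmb7 had -0.23 (adjusted p = 0.037 in edgeR). In MC38 libraries 1 to 3, Psmb7 had 242 and 269 CPM with SIS ECM and 207, 206 and 212 CPM in cells alone. In MC38 libraries 4 to 6 it had 280, 250 and 266 CPM with SIS ECM and 273 and 263 CPM in cells alone. The MC38 ratio of Psmb10 to Psmb7 thus reflects both genes. The ratios carry no test of their own.

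**Figure D3:**
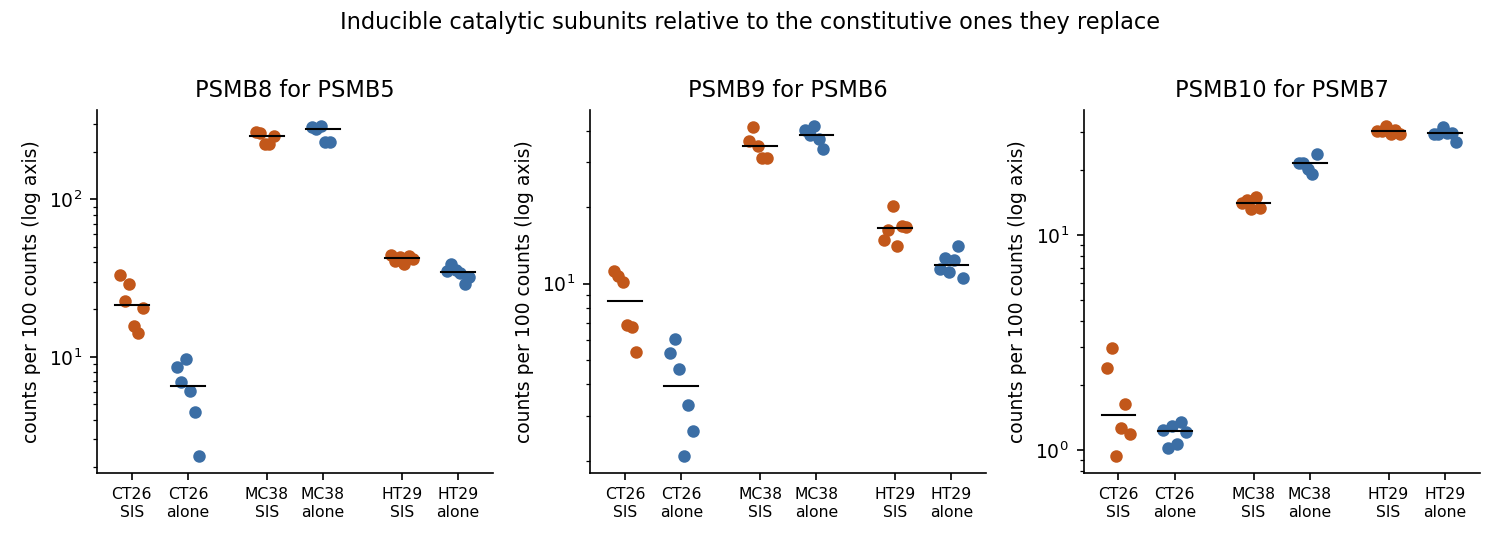
Counts of PSMB8, PSMB9 and PSMB10 per 100 counts of PSMB5, PSMB6 and PSMB7 (log y axis) in each library of SIS ECM (orange) and cells-alone (blue) spheroids, with the group median as a bar. CT26 SIS ECM medians of 21.4 for PSMB8 stand above 6.54 in cells alone, and MC38 SIS ECM medians of 14.1 for PSMB10 stand under 21.6 in cells alone.

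Whether lines differed in their response was tested directly. For MC38 minus CT26, 0 of 43 constitutive genes differed in edgeR's interaction test, against 8.27% of all genes. An unadjusted p under 0.05 was found for 6 of them and for 3308 of all 14080 genes tested. With a term for number range, 7 were higher and 3 lower, against 26.6% of all genes. In the fit without that term the smallest adjusted p was that of the core chaperone gene Psmg4, at 0.072 with a log2 difference of -0.61 ± 0.21. The inducible subunits differed in the same fit without the range term, by -2.12 ± 0.25 for Psmb8 (adjusted p = 6.9e-06), -1.56 ± 0.21 for Psmb9 (adjusted p = 5.1e-05) and -0.83 ± 0.23 for Psmb10 (adjusted p = 0.026, lost without CT26 SIS ECM libraries 1 or 2 or CT26 cells-alone library 2). For HT29 minus the mean of both mouse lines, 0 of 43 differed, against 5.44% of all genes. An unadjusted p under 0.05 was found for 1 of them and for 2190 of all 12272 genes tested. With the range term 1 was lower, against 13.8% of all genes. In the fit without that term PSMC4 had the smallest adjusted p of the constitutive genes, at 0.20 with -0.17 ± 0.07. Its fall in HT29 was thus not shown to differ from the mouse lines in that fit.

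In CT26 more constitutive genes differed by library number than with the matrix. Over both cultures, libraries 4 to 6 against 1 to 3 had 30 of 43 genes higher (26.5% of all genes were) and 3 lower (26.3% of all genes were) in edgeR. The median log2 difference was 0.28 for the constitutive genes and -0.0023 for all genes. All 7 tested alpha genes were higher, with a median of 0.54, and 6 of 7 beta genes, with a median of 0.40. The base had 4 higher and 1 lower (median 0.08) and the lid 6 higher and 1 lower (median 0.18). Psma5 had 251, 229 and 234 CPM in SIS ECM libraries 4 to 6, against 147, 137 and 147 CPM in SIS ECM libraries 1 to 3. In cells alone it had 259, 258 and 269 CPM in libraries 4 to 6, against 190.2, 193 and 186 CPM in libraries 1 to 3. The ranges did not overlap within either culture, and the difference was 0.60 ± 0.05 (adjusted p = 2.6e-07). Psmb3, a structural beta subunit, differed most, by 0.67 ± 0.07 (adjusted p = 1.5e-06). The 3 lower genes were Psmf1 (-0.38 ± 0.07), the base scaffold Psmd2 (-0.23 ± 0.04) and the lid gene Psmd11 (-0.10 ± 0.04, held in 4 of 12 omissions of 1 library, without SIS ECM libraries 2 or 4 or cells-alone libraries 3 or 4). In cells-alone libraries by themselves 29 were higher and 2 lower (44.4% of all genes called), and in SIS ECM libraries 26 and 3 (39.2%). The inducible Psmb8 and Psmb9 were lower too, at -0.64 ± 0.18 and -0.57 ± 0.14.

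In MC38, libraries 4 to 6 against 1 to 3 had 17 of 43 genes higher (19.9% of all genes were) and 4 lower (20.9% of all genes were). They included 4 of 7 alpha genes (median 0.21) and 6 of 7 beta genes (median 0.25), with Psmb3 at 0.47 ± 0.06 and Psma7 at 0.43 ± 0.05. The 4 lower genes were Psme4 (-0.26 ± 0.05), Psmf1 (-0.23 ± 0.05), Psmd11 (-0.19 ± 0.04) and Psmd2 (-0.15 ± 0.04, lost without SIS ECM library 3). In cells-alone libraries by themselves 27 were higher and 2 lower (35.4% of all genes called), and in SIS ECM libraries 6 were higher and 10 lower (42.9% of all genes called). All 14 tested core genes were higher in cells alone, with a median of 0.39, against 4 of 14 with SIS ECM, with a median of 0.07.

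Exon length moved with these differences. Across the 43 genes, Spearman's rho between exon length and the log2 difference of libraries 4 to 6 over 1 to 3 was -0.40 in CT26 and -0.49 in MC38, and across all tested protein-coding genes it was -0.27 in both lines. The genes share libraries, so these values are descriptive. In CT26 the 21 constitutive genes with under 1500 bases of exon had a median difference of 0.36 and the 22 longer ones 0.18, beside 0.25 and -0.06 over all protein-coding genes. In MC38 these medians were 0.17 and 0.06, beside 0.17 and -0.04. The part of length or RNA quality in the differences was not tested.

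The core sum also moved with the mitochondrial share from library to library, in HT29 as in the mouse lines. Among HT29 SIS ECM libraries, 1 and 4 had core sums of 2377 and 2470 CPM with mitochondrial shares of 6.60% and 6.89%, and the other 4 had 1946 to 2167 CPM with 5.33% to 5.80%. HT29 cells-alone libraries had 2069 to 2379 CPM with 6.15% to 6.80%. With SIS ECM library 4 left out, 5 genes fell in HT29 (PSMB5 and PSMC3 besides the others). Over all genes, 1073 of 15350 tested fell in that omission, against 880 of 15207 with all libraries. The part of the mitochondrial share in the HT29 calls was not tested.

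**Figure D4:**
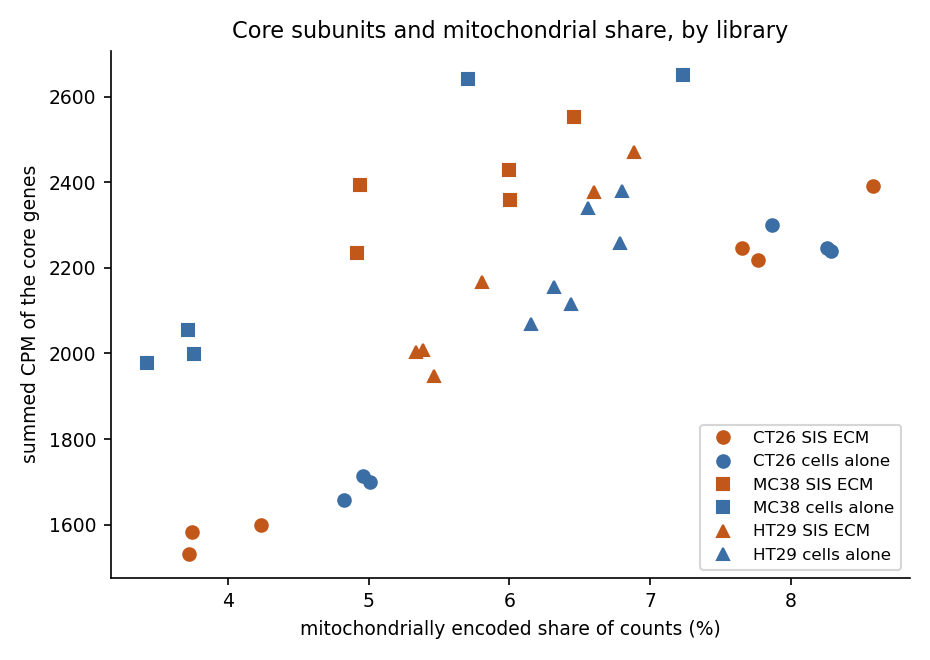
Summed CPM of core genes (y axis) against the mitochondrially encoded share of counts in percent (x axis), 1 point per library, orange for SIS ECM and blue for cells alone. Within each line the libraries with a larger mitochondrial share tend to have a larger core sum, from 1532 CPM at 3.72% to 2391 CPM at 8.59% in CT26.

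Within number ranges, or with a term for them, more SIS ECM differences passed than in the fit without that term. With a term for number range in CT26, 2 genes rose (Psmf1 by 0.22 and Psme2 by 0.19) and 7 fell, namely Psma5 (-0.27), Psme3 (-0.24), Psmg1 (-0.24), Psmd6 (-0.20), Psmd14 (-0.20), Psmd11 (-0.14) and Psmd8 (-0.12), against 28.9% of all genes called. Libraries 4 to 6 alone had 2 higher and 4 lower (19% of all genes called), and libraries 1 to 3 alone had 1 higher and 6 lower (20% of all genes called). Psma5 was the gene lower in both ranges, at -0.14 in libraries 4 to 6 and -0.41 in libraries 1 to 3. Psme3 had -0.10 in libraries 4 to 6, where it did not pass (adjusted p = 0.12), and -0.39 in libraries 1 to 3 (adjusted p = 0.0035). The difference between the ranges itself passed for 0 of 43 genes in CT26 in edgeR, against 0.383% of all genes. An unadjusted p under 0.05 was found for 12 of them and for 2241 of all 12269 genes tested. Without SIS ECM library 3, 11 were higher and 3 lower in that test. In the same omission 1693 of all 12364 genes tested were higher and 1396 lower.

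In MC38 the SIS ECM difference varied with the number range. With a range term, Psmd5 rose by 0.17 and Psmb5 (-0.22), Psmb6 (-0.20), Psmd3 (-0.21) and Psmg3 (-0.23) fell, against 24.7% of all genes called. In libraries 4 to 6 alone, 0 rose and 6 fell (17.1% of all genes called): the beta genes Psmb5 by 0.37, Psmb6 by 0.32, Psmb3 by 0.31, Psmb2 by 0.22 and Psmb1 by 0.20, and Psme2 by 0.21. In libraries 1 to 3 alone, 21 rose and 1 fell (39.7% of all genes called), with all 7 tested alpha genes among the 21 and Psmd3 (-0.35) as the 1 that fell. With library number as a block, 0 of 43 were called, against 9.01% of all genes. Psma3, for example, had 225, 215 and 217 CPM in SIS ECM libraries 4 to 6 and 241 and 231 CPM in cells-alone libraries 4 and 5, but 202 and 219 CPM in SIS ECM libraries 1 and 3 and 168, 172 and 172 CPM in cells-alone libraries 1 to 3. The SIS ECM libraries were under the cells-alone libraries in the first case and above them in the second. Psmb1 passed in opposite directions, at -0.20 in libraries 4 to 6 (adjusted p = 0.012 in edgeR) and 0.13 in libraries 1 to 3 (adjusted p = 0.036). The SIS ECM effect in libraries 4 to 6 minus that in libraries 1 to 3 was lower for 25 of 43 genes and higher for 1 (Psmd3), against 11.5% of all genes lower and 10.4% higher, with a median of -0.25 beside -0.0013 over all genes. The 25 were 13 of 14 core genes, 10 of 17 cap genes, Psmd10 and Psme2. This comparison was chosen after the data were seen, rests on 2 or 3 libraries per group, and gave 10 lower genes without SIS ECM library 3, 14 without SIS ECM library 5, 15 without SIS ECM library 6 and 16 without cells-alone library 2. Psmd3 lost its call when DESeq2's size factors replaced TMM (0 higher and 28 lower) and held in 3 of 10 omissions, without SIS ECM library 4 or cells-alone libraries 3 or 5. The mitochondrial share was 6.00% to 6.46% with SIS ECM and 5.71% and 7.24% in cells alone in libraries 4 to 6, and 4.92% and 4.94% with SIS ECM and 3.42% to 3.75% in cells alone in libraries 1 to 3, and its part was not tested. Number range and whatever else separated these libraries cannot be told apart.

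**Figure D5:**
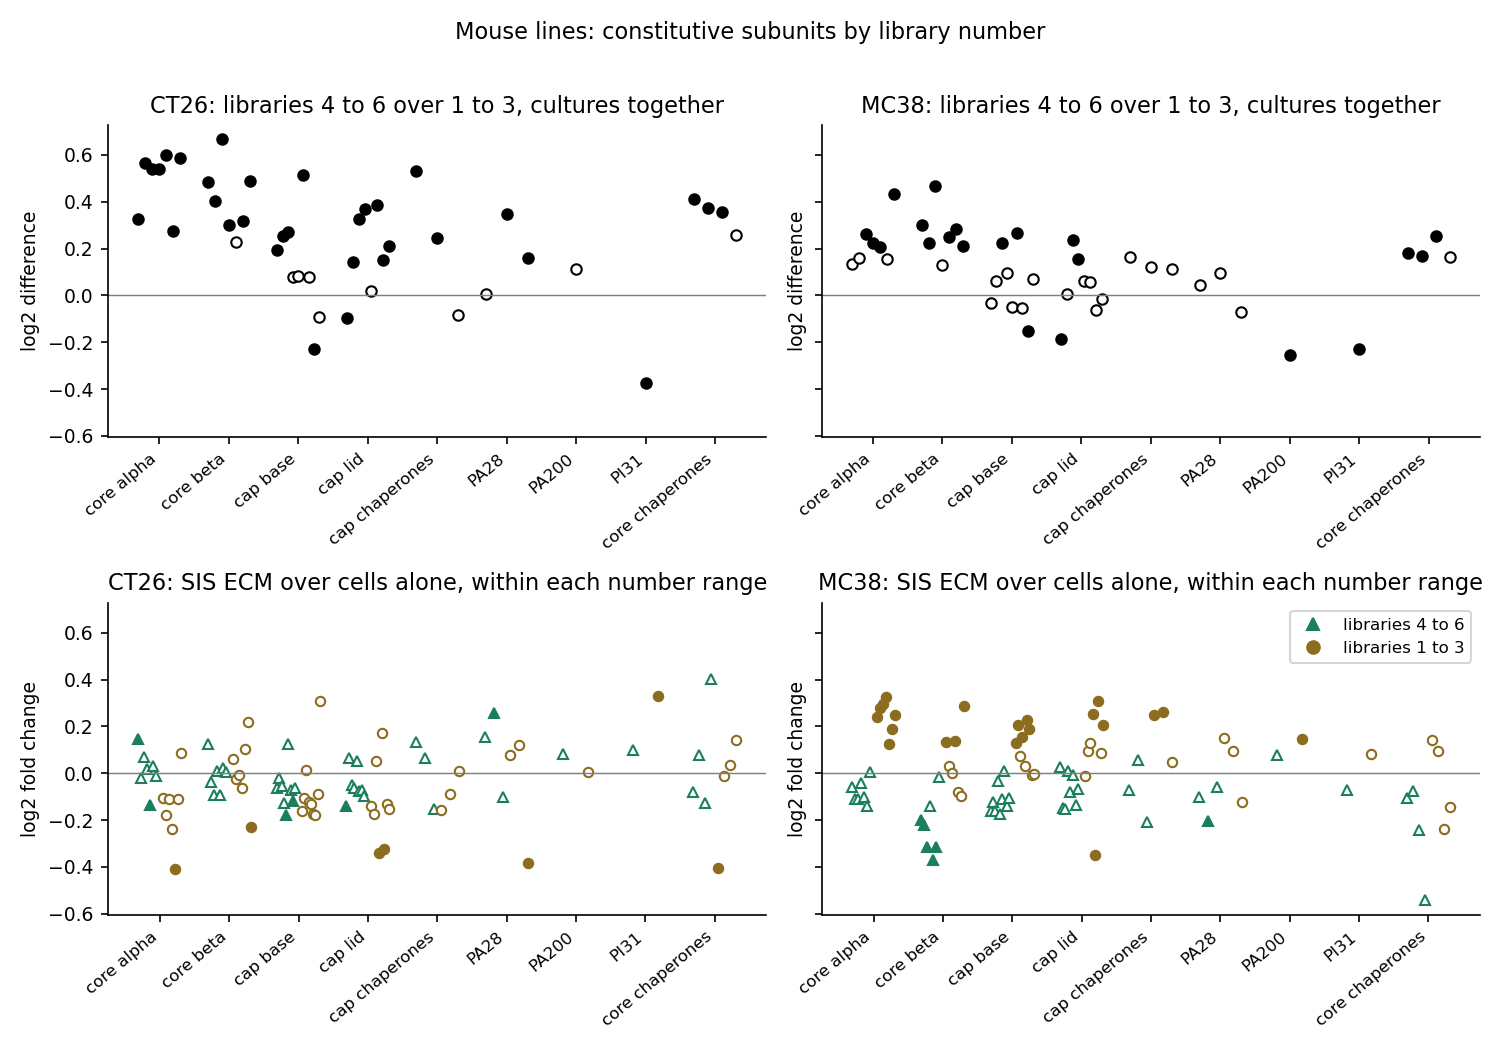
Top, log2 difference (y axis) of libraries 4 to 6 over 1 to 3 for each tested constitutive gene by role (x axis) in CT26 and MC38, filled where the adjusted p is under 0.05; bottom, log2 fold change of SIS ECM over cells alone within libraries 4 to 6 (triangles) and 1 to 3 (circles). Core genes lie above 0 in both top panels (medians 0.54 and 0.40 for alpha and beta genes in CT26). In MC38 alpha genes lie above 0 in libraries 1 to 3, where 21 circles over all roles are filled above 0 and that of Psmd3 is filled under 0.

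Between the mouse lines without matrix, levels of subunits differed in both directions, as those of most genes did. In MC38 against CT26 cells alone, 20 of 43 genes were higher and 11 lower in edgeR, against 41.3% of all genes higher and 36.8% lower, and the median log2 difference was 0.15, beside 0.05 over all genes. Psme4 differed most. It had 1003, 1038, 984, 909 and 824 CPM in MC38 cells alone and 164 to 190.1 CPM (median 183) in CT26 cells alone. The groups lay far apart, and the difference was 2.21 ± 0.09 (adjusted p = 4.0e-17), with the call kept in all 22 omissions of 1 library. With SIS ECM it had 1149, 1099, 898, 919 and 936 CPM in MC38 and 163 to 201 CPM (median 197) in CT26. Per kilobase of exon Psme4 ranked 6 among the constitutive genes in MC38 and 36 in CT26, in both cultures. Psme4 encodes PA200, a large nuclear activator that caps the core without ATP, and lies at 30771726 to 30880361 on the plus strand of chromosome 11 (mm10).

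The active-site genes were also higher in MC38. Psmb6 differed by 1.07 ± 0.11 (adjusted p = 8.1e-09), Psmb5 by 0.77 ± 0.12 (adjusted p = 3.5e-06) and Psmb7 by 0.38 ± 0.13 (adjusted p = 0.0089). Among beta genes 6 of 7 were higher and 0 lower (median 0.77), whereas among alpha genes 0 of 7 were higher and 3 lower (Psma3 at -0.53, Psma2 at -0.34 and Psma5 at -0.33). The Psma2 call was lost without MC38 cells-alone libraries 1, 2 or 3 or CT26 cells-alone libraries 4, 5 or 6, and the Psma5 call held in 11 of 22 omissions of 1 library (it was lost without any of these 6 or of the 5 MC38 SIS ECM libraries). All 3 PA28 genes were higher, Psme2 by 1.11 ± 0.10, Psme1 by 0.67 ± 0.06 and Psme3 by 0.40 ± 0.07. Part of the Psme2 reads was divided with its copy Psme2b, which had 48.1 to 135 counts per library, and Psme2 counts were not whole in 21 of 22 mouse libraries. In the cap, Psmc5 (1.12 ± 0.07), Psmd3 (0.997 ± 0.10) and Psmc3 (0.80 ± 0.10) were highest and Psmd14 (-0.66 ± 0.11), Psmc6 (-0.51 ± 0.14) and Psmc4 (-0.44 ± 0.06) lowest, so subunits of 1 complex differed in both directions. The inducible subunits were higher by 6.18 ± 0.19 (Psmb8), 4.41 ± 0.16 (Psmb9) and 4.56 ± 0.16 (Psmb10).

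Other genes of the pathway were counted from lists by role. Over all genes tested, edgeR called 9.25% in CT26, 9.17% in MC38 and 13.5% in HT29. An unadjusted p under 0.05 was found for 2983 of 12269 genes in CT26, 3364 of 13146 in MC38 and 4229 of 15207 in HT29. Of further subunits and assembly factors outside the naming rule (such as Adrm1, a ubiquitin receptor, and Pomp, the core maturation factor), 0 of 6 passed in CT26, 0 of 6 in MC38 and 0 of 7 in HT29, with 0, 0 and 2 at an unadjusted p under 0.05 in edgeR. Of 6 genes for the p97 unfoldase and its cofactors, 0 passed in any line (0, 0 and 2 unadjusted), and of 6 for ubiquitin and its activating enzymes likewise 0 (1, 0 and 1 unadjusted). Of 9 ubiquitin shuttles and trimming enzymes, 0 passed in CT26 (1 unadjusted), 1 rose in MC38 (2 unadjusted) and 3 rose in HT29 (5 unadjusted), where the median log2 fold change was 0.08 and the range 0.04 to 0.18. ZFAND5, which stimulates the proteasome, rose in both of these lines: to 384 to 452 CPM in MC38 SIS ECM libraries, against 283 to 347 CPM in MC38 cells alone (0.36 ± 0.08, adjusted p = 0.013 in edgeR), and to 205 to 222 CPM in HT29 SIS ECM libraries, against 182 to 194 CPM in HT29 cells alone (0.18 ± 0.04, adjusted p = 0.0023). The groups did not overlap in either line. RAD23B, which carries ubiquitinated proteins to the cap, rose in HT29 by 0.14 ± 0.03 (adjusted p = 0.013 in edgeR).

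On the NFE2L1 route, 4 of 7 genes passed in MC38 (2 higher and 2 lower, against 9.17% of all genes called), 0 in CT26 (1 unadjusted, 9.25%) and 0 in HT29 (1 unadjusted, 13.5%). Whether the lines differ in this count was not tested. Nfe2l1 had 174 to 197 CPM (median 175) in MC38 SIS ECM libraries and 208 to 297 CPM (median 265) in MC38 cells alone, with no overlap, and fell by 0.48 ± 0.09 (adjusted p = 0.0085 in edgeR). Nfe2l2, the related NRF2 gene, rose by 0.31 ± 0.07 (adjusted p = 0.019, lost without cells-alone libraries 1 or 2). Ngly1, which deglycosylates NFE2L1 protein, rose by 0.28 ± 0.08 (adjusted p = 0.042, held in 1 of 10 omissions, that of cells-alone library 4). Maff, a small MAF partner, fell by 0.78 ± 0.20 (adjusted p = 0.033, held in 4 of 10 omissions, without SIS ECM libraries 3, 4 or 5 or cells-alone library 4). The constitutive subunits in the same libraries had a median log2 fold change of 0.03. Interferon pathway genes were read beside the inducible subunits. Of 5 listed, 5 rose in CT26 (Irf1, Irf7, Irf9 and Nlrc5 among them), against 9.25% of all genes called. In MC38, 1 rose (Irf9) and 1 fell (Irf1, whose call was lost without cells-alone library 3), against 9.17% of all genes called. In HT29, 3 rose (IRF7 and IRF9 among them), against 13.5% of all genes called. In CT26 the Irf1 call held in 3 of 12 omissions of 1 library, without SIS ECM libraries 4 or 5 or cells-alone library 3.

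In the authors' deposited table of fold changes, 43 of the 45 genes were listed per line. At an adjusted p under 0.05, the authors' deposited table had Psme3 lower in CT26 (log2 fold change -0.20), where 11.8% of all genes listed were called, and 0 of the 43 called in MC38, where 8.32% were. In HT29, where 16.02% were, the authors' deposited table had PSMC4 (-0.20), PSMC5 (-0.17) and PSMD9 (-0.23) lower. The 3 HT29 genes are those that fell in edgeR. Of the inducible subunits in MC38, the authors' deposited table had Psmb10 lower (-0.46, adjusted p = 0.0102) and did not call Psmb8 (-0.30, adjusted p = 0.066) or Psmb9 (-0.27, adjusted p = 0.093).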

How the data were processed

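Per the submitters' processing notes, the tools were cutadapt 1.18, STAR 2.7.0f and RSEM 1.3.1, with limma, and the builds hg38 and mm10. Which step each tool served, and the strand setting, are not given in the sources used here. Per the labels' protocols, the kit for the libraries was a stranded one. The authors deposited expected counts per gene, not normalised, in 1 table per species. Per the file headers, a further table holds their log2 fold changes with p-values and adjusted p-values. A score column there (a t statistic) and 34 per-sample columns of the deposited tables were not used.

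Expected counts were rounded; 11 of 45 mouse and 9 of 45 human members had values not whole to within 1e-06 in at least 1 library. They were tested in R 4.3.3 with edgeR 4.0.16 (filterByExpr with a minimum count of 10, TMM factors from 0.917 to 1.08, two-sided quasi-likelihood test), adjusted across all genes tested, at a threshold of 0.05, after a test on simulated data. Log2 fold changes are SIS ECM over cells alone, ± SE. Alternatives were DESeq2 1.42.0, its size factors in edgeR, no filter, omission of each library, library number as a block, and number range. Mouse and human genes were matched by symbol (16667 shared). Genes named were the called members (up to 6 per class), PSME1 to PSME4, PSMB5 to PSMB10, members that differed between lines, and up to 4 called genes per list and line; others, and those of the number-range comparisons, were chosen after their values were seen. Members and lists were chosen with earlier results of these data known. Some genes of these lists are not reported here. Mouse exon lengths and positions come from GENCODE vM21 on mm10.

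Same-numbered libraries deviated together in CT26 (correlations 0.22 to 0.48) and MC38 (0.19 to 0.32). The block took them as pairs, which the labels do not give. Deviations were taken from group means over both number ranges. The split by range therefore enters these correlations, and they cannot show pairing by number. The cells-alone library that deviated most alike had the same number for SIS ECM library 4 in CT26 and libraries 3 and 4 in MC38. For the other SIS ECM libraries compared it had another number. In 80 pairs of libraries of the same group, 0 held identical values, and the chi-square per degree of freedom was 1.89 to 137.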

Additional observations from a re-analysis of the deposited data

Results flagged for a closer look

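In 7 of 78 groups of libraries tested, 1 library lay far from the others by Dixon's test, which flags about 1 in 20 groups by chance. CT26 SIS ECM library 3 was the lowest of its group for Psmb6 (32.1 CPM), Psmc4 (72.7 CPM) and Psmc5 (38.8 CPM). CT26 cells-alone library 3 was the lowest for Psme4 (164 CPM). HT29 SIS ECM library 1 was the highest for PSMD9 (31.6 CPM), HT29 cells-alone library 3 the highest for PSMB6 (68.6 CPM), and MC38 cells-alone library 5 the highest for Psmc5 (136 CPM).

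In MC38 the SIS ECM effect differed between number ranges for 26 genes in edgeR's interaction test (libraries 4 to 6 minus libraries 1 to 3, log2, adjusted p under 0.05). Of all 13146 genes tested, 11.5% were lower and 10.4% higher in the same test. The comparison was chosen after the data were seen and rests on few libraries per group. The count of genes that passed changed when a library was left out, as given above. Among alpha genes the difference was -0.30 for Psma1, -0.39 for Psma2, -0.41 for Psma3, -0.37 for Psma4, -0.23 for Psma5, -0.33 for Psma6 and -0.25 for Psma7. Among beta genes it was -0.34 for Psmb1, -0.25 for Psmb2, -0.32 for Psmb3, -0.28 for Psmb4, -0.29 for Psmb5 and -0.31 for Psmb7. In the base it was -0.30 for Psmc1, -0.33 for Psmc2, -0.24 for Psmc3 and -0.34 for Psmc6. In the lid it was 0.27 for Psmd3, -0.32 for Psmd6, -0.23 for Psmd7, -0.28 for Psmd8, -0.25 for Psmd12, -0.28 for Psmd13 and -0.25 for Psmd14. It was -0.32 for the base chaperone gene Psmd10 and -0.31 for Psme2.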

How the results depend on the processing

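For the SIS ECM effect in CT26 (0 higher and 0 lower), DESeq2 gave 1 lower, the replicate block 2 lower, the range term 2 higher and 7 lower, libraries 1 to 3 alone 1 higher and 6 lower, libraries 4 to 6 alone 2 higher and 4 lower, and omission of 1 library 0 to 1 lower. In MC38 (0 and 0, with Psmb1 called in opposite directions in the 2 ranges) the replicate block gave 0 and 0, the range term 1 higher and 4 lower, libraries 1 to 3 alone 21 higher and 1 lower, and libraries 4 to 6 alone 6 lower. In HT29 (3 lower) omissions gave 1 to 5 lower. There, same-numbered libraries did not deviate together (correlations -0.0956 to 0.0646), so they share only a number, and the replicate block kept 3 lower. For number range in MC38 (17 higher and 4 lower), cells-alone libraries gave 27 and 2, SIS ECM libraries 6 and 10, and omissions 13 to 25 and 3 to 4; in CT26 (30 and 3) omissions gave 28 to 31 and 2 to 3. For the range difference of the SIS ECM effect, chosen after the data were seen, CT26 (0 and 0) had 1 lower with no filter, and 0 to 11 higher and 0 to 3 lower over omissions, both highest values without SIS ECM library 3. That omission had 1693 of all 12364 genes tested higher and 1396 lower. MC38 (1 higher and 25 lower) had 0 higher with DESeq2's size factors or no filter, and 0 to 1 higher and 10 to 30 lower over omissions; an omission that leaves 1 library in a range assumes that it varies like the others. For MC38 minus CT26 (0 and 0) the range term gave 7 higher and 3 lower, the replicate block 0 and 0, and omissions 0 to 3 higher, the 3 without CT26 SIS ECM library 4; for HT29 minus the mouse mean the range term gave 1 lower. MC38 against CT26 without matrix (20 and 11) had 18 to 22 higher and 8 to 11 lower over omissions. Apart from these counts, 141 values of single genes were recomputed: of 2082 over omissions 62 lost a call, 14 gained one and 2 with no call moved by more than the mean SD within groups, and of 537 under other settings 18 lost, 25 gained and 10 moved. The causes of these shifts were not tested.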
